A study of Mus musculus with 7 samples.

Results

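The Notch pathway was followed through 10 genes, chosen by name. They are the DNA-binding factor Rbpj, the receptors Notch1, Notch2 and Notch3, the ligands Dll1, Dll3, Jag1 and Jag2, and the target genes Hes1 and Hey1. These are 10 of the 29267 mouse genes in the RNA-Seq tables, and all 10 were found by symbol and reached 1 TPM in each of the 7 libraries. TPM is a measure of transcript abundance, the reads of a gene divided by its effective length and scaled so that every library has an equal sum. It places genes and libraries on a common scale. Being a share of the library, it also depends on the levels of the other genes, and results after rescaling are given below. Each library is the only one of its group, so no spread between cultures could be estimated and no p-value is given.

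The first 4 groups were sorted from reprogramming cultures. Mouse embryonic fibroblasts (MEFs) of the OG2 line, which carry egfp under the Oct4 promoter with its distal enhancer, were infected with retroviruses for Oct4, Sox2, Klf4 and c-Myc. They were then kept in mES medium (serum, LIF and vitamin C) or in the chemically defined 5C medium (N2, bFGF, LIF, vitamin C and β-mercaptoethanol). FACS on day 15, at passage 0, split each culture by the reporter, into mES-Oct4GFP+ and mES-Oct4GFP- cells and likewise into 5C-Oct4GFP+ and 5C-Oct4GFP- cells. The other 3 groups were grown for 20 passages. Those called 5C-Oct4GFP+ (naive) and 5C-Oct4GFP+ (primed) in the study and here converted naive and converted primed cells, came from 5C-Oct4GFP+ cells moved to naive medium, with LIF and inhibitors of GSK3 and MEK, or to primed medium, with bFGF and activin A, where the reporter was lost. R1 ESCs-primed were embryonic stem cells of the R1 line brought to the primed state on MEF feeder cells. They were then kept on serum-coated plates in primed medium that held the GSK3 inhibitor CHIR99021 and IWR-1, an inhibitor of Wnt signaling, in the place of bFGF and activin A. All OG2 groups share the 4 retroviral factors, and the R1 group has none of them. Libraries of untreated MEFs and of naive R1 ESCs were not analysed here.

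In Notch signaling a ligand of the Delta or Jagged family on a cell binds a Notch receptor on its neighbour. ADAM proteases and γ-secretase then cut the receptor and free its intracellular domain, which enters the nucleus and joins RBPJ and a Mastermind protein on DNA. Without that domain RBPJ is bound by co-repressors, so the same factor serves both to silence and to activate targets such as Hes1 and Hey1, which encode basic helix-loop-helix repressors. Mouse ESCs renew themselves with little need of Notch signaling, the pathway favours neural fate when they differentiate, and Notch3 is known for its role in vascular smooth muscle and other mesenchymal cells.

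The promoters of the member that stood highest in 5C-Oct4GFP+ cells and of the receptors whose levels moved in unlike ways are shown as sequence context for the levels that follow. RefSeq promoter windows on GRCm38.p6 were matched for 8 of the 10 genes. No window was at hand for Hes1 and Hey1, so these were not searched. Each sequence below is the longest stretch of the 250 bases before a start site that lies in no annotated exon, 5′ to 3′ on the strand of the gene. Capitals mark the RBPJ core TGGGAA, which was searched on both strands.
Rbpj, chr5:53590096-53590213, plus strand: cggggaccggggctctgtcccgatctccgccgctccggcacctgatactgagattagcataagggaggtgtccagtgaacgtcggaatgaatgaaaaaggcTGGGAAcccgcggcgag
Notch1, chr2:26503825-26504072, minus strand: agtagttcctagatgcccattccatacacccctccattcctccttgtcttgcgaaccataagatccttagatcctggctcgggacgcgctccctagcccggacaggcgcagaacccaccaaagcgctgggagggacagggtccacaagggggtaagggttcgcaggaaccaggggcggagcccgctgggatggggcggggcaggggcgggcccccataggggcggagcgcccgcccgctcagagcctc
Notch3, chr17:32166891-32167140, minus strand: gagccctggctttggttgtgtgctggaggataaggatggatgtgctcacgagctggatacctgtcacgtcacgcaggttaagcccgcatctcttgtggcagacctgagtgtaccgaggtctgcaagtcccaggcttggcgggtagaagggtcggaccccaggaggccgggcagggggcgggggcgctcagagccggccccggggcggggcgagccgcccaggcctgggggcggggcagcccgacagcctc
The core begins at base -149 from the start site of this Rbpj window in the first of these. It also lies on the other strand at base -65, within an annotated exon, where chr5:53590271-53590296 on the plus strand reads cgctcgcattTTCCCAggacccctcc. Another Rbpj window overlaps this one and has its start site farther downstream, which places the latter match at base -205. The Rbpj and Notch1 windows lie inside the gene spans given below, not at their outer ends. Among all windows, 7094 of 32851 (21.6%) hold the core in these 250 bases. The windows of Notch1, Notch2, Notch3, Dll1, Dll3, Jag1 and Jag2 do not hold these letters there. A match of 6 letters is a description of the sequence and does not show binding. The stretches are rich in G and C, at 61.0% for Rbpj, 66.1% for Notch1 and 68.8% for Notch3.

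Depth was between 6108252 and 11496615 expected counts per library, with a median of 8346747. The labelled states were checked against marker lists. The 8 pluripotency markers, among them Nanog and Dppa5a, summed to between 5507 and 7539 TPM in the libraries of converted naive cells and of both kinds of Oct4GFP+ cells. They summed to 119.5 TPM in mES-Oct4GFP- cells, and to 453 TPM in their 5C counterparts, where Nanog was still at 119.5 TPM. The primed libraries held 1260 and 1408 TPM of this list and 915 and 1069 TPM of primed markers such as Fgf5 and T. The 10 fibroblast markers summed to 589 TPM and 266 TPM in the Oct4GFP- cells of mES and 5C medium, to 75.4 TPM in converted primed cells and 213 TPM in R1 ESCs-primed, and to between 10.5 and 16.1 TPM in the other libraries. Endothelial markers summed to between 2.59 and 48.1 TPM and presomitic mesoderm markers to between 0.73 and 3.46 TPM. Blood markers summed to between 9.34 and 58.5 TPM, mostly Cd68 in every library, while Ptprc did not pass 0.8 TPM. Tek held 40.4 TPM of the highest endothelial sum, in 5C-Oct4GFP- cells. In such bulk samples, fewer cells of a type and less RNA per cell cannot be told apart.

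**Figure D1:**
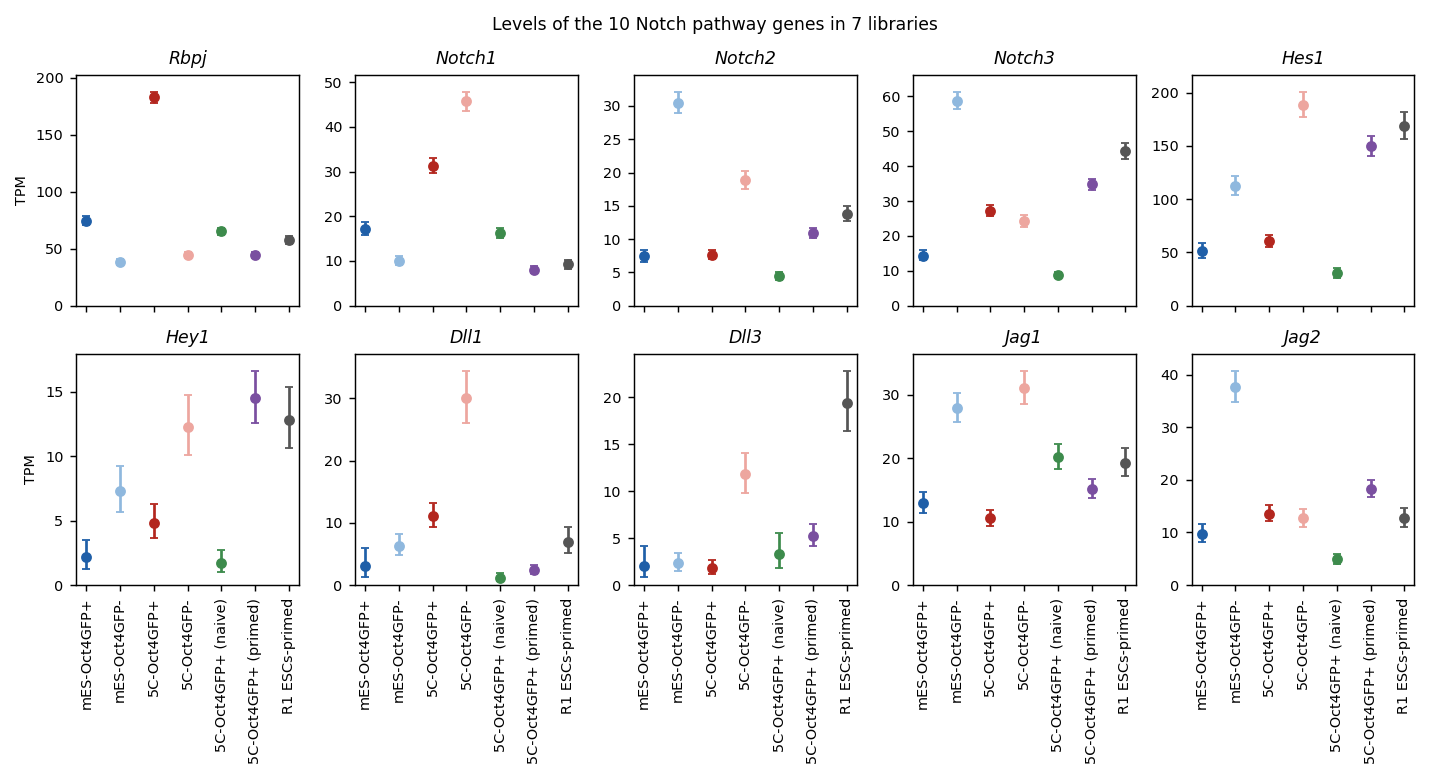
Level of each gene (TPM, vertical axes from 0, with a scale for each gene) in the 7 libraries along the horizontal axis. Points are single libraries and bars are exact Poisson 95% intervals of the read count, which cover counting error only. Rbpj stood highest in 5C-Oct4GFP+ at 183 TPM, and Hes1 and Hey1 were lowest in converted naive cells.

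Rbpj (chr5:53466152-53657362, plus strand, GENCODE M21 on GRCm38) encodes the factor through which all Notch receptors act. In mES medium its level was 74.7 TPM in the Oct4GFP+ and 38.4 TPM in the Oct4GFP- fraction. In 5C medium these fractions had 183 TPM and 44.6 TPM. Converted naive cells had 65.2 TPM, converted primed cells 44.3 TPM and R1 ESCs-primed 57.7 TPM. 5C-Oct4GFP+ cells thus held more Rbpj RNA than any other group, 2.45 times the next library (95% counting interval 2.31 to 2.61), from 5572 and 1327 reads. The other 6 libraries lay between 38.4 and 74.7 TPM. Among the genes above 0 in a library Rbpj stood at percentile 95.04 in 5C-Oct4GFP+ and between percentiles 73.3 and 85.1 elsewhere. Of 17733 genes that reached 1 TPM in any library, 1706 (9.62%) were highest in 5C-Oct4GFP+ and 155 (0.874%) were at least 2-fold above the next library there, a background drawn up after the level of Rbpj was seen. The study picked Rbpj as a marker of the 5C state on these libraries, so its direction is not independent evidence. Next to each other in order, 5C-Oct4GFP- and converted primed cells did not differ beyond counting error. The effective length of Rbpj was nearly the same in all libraries, from 5328 to 5353 bases. The annotation also holds the processed pseudogenes Rbpj-ps1 and Rbpj-ps3, which have no rows in the tables, and reads they share with Rbpj could not be separated.

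Notch1 (chr2:26457903-26516663, minus strand), the receptor best known from T cell and neural development, had its highest levels in the 5C cultures. In mES medium it was at 17.2 TPM in Oct4GFP+ and 10 TPM in Oct4GFP- cells, and in 5C medium at 31.3 and 45.7 TPM. Converted naive cells had 16.2 TPM, converted primed cells 8.06 TPM and R1 ESCs-primed 9.24 TPM. Both 5C libraries stood above all the others, and the primed libraries and mES-Oct4GFP- formed the low end, where neighbours did not differ beyond counting error. The effective length used for Notch1 was 7460 bases in 5C-Oct4GFP+ and at least 8721 elsewhere, which raises its TPM there for the same reads. Notch1 shares 2.91% and 7.504% of its exonic bases with Gm13568 and 0610009E02Rik on the opposite strand, and whether counting used the strand is not given in the sources used here.

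Notch2 (chr3:98013527-98150361, plus strand), a broadly expressed receptor, had its highest level in mES-Oct4GFP- cells at 30.5 TPM, followed by 5C-Oct4GFP- cells at 18.8 TPM. It was at 13.8 TPM in R1 ESCs-primed and 10.9 TPM in converted primed cells, at 7.61 TPM in the Oct4GFP+ cells of 5C medium and 7.43 TPM in those of mES medium, and lowest in converted naive cells at 4.44 TPM. Both Oct4GFP- libraries stood above the primed ones, and those above the Oct4GFP+ and naive ones. Only 5C-Oct4GFP+ and mES-Oct4GFP+ were neighbours that did not differ beyond counting error. Notch2 shares 5.02% of its exonic bases with Gm42820, which has no row in the tables.

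Notch3 (chr17:32120820-32166852, minus strand) had a different order. It was highest in mES-Oct4GFP- cells at 58.8 TPM and lowest in converted naive cells at 8.73 TPM. Between these came R1 ESCs-primed with 44.3 TPM, converted primed cells with 34.8 TPM, the Oct4GFP+ and Oct4GFP- cells of 5C medium with 27.2 and 24.1 TPM, and mES-Oct4GFP+ cells with 14.4 TPM. Each neighbour differed beyond counting error, and the 5C-Oct4GFP+ and 5C-Oct4GFP- libraries were close, at a ratio of 1.13 (1.03 to 1.23). Notch3 shares 6.03% of its exonic bases with Gm17276 on the opposite strand.

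With Notch4 added, which is no member but is the remaining mouse receptor, receptor transcripts summed to 131 TPM and 118 TPM in the Oct4GFP- cells of 5C and mES medium. The sum was 69.6 TPM and 46.6 TPM in the Oct4GFP+ cells of these media, 75.7 TPM in R1 ESCs-primed, 61.4 TPM in converted primed cells and 32.6 TPM in converted naive cells. Both Oct4GFP- libraries had like sums with an unlike makeup. Notch3 held 49.8% of receptor TPM in mES medium and 18.4% in 5C medium, while Notch1 held 8.48% and 34.8%. Notch1 held 44.9% in 5C-Oct4GFP+ and 13.1% in converted primed cells, where Notch3 held 56.6%. R1 ESCs-primed resembled converted primed cells in this, with 58.5% Notch3.

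**Figure D2:**
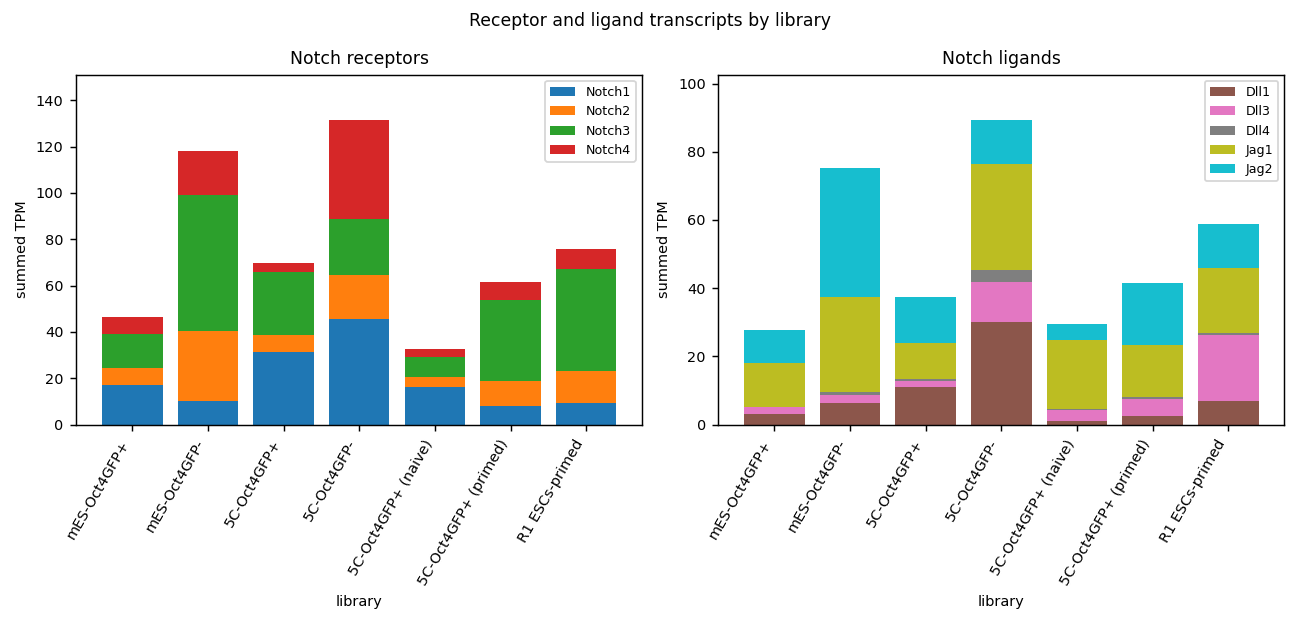
Summed TPM of the receptors Notch1 to Notch4 (left) and of the ligands Dll1, Dll3, Dll4, Jag1 and Jag2 (right) in each library, as stacked bars from 0 with 1 color per gene. Both sums were highest in 5C-Oct4GFP-, at 131 and 89.3 TPM, and the Notch3 and Jag2 blocks are largest in mES-Oct4GFP-.

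Dll1 (chr17:15367354-15376872, minus strand) encodes an activating Delta ligand that drives lateral inhibition in neural progenitors. In 5C medium it was at 30.0 TPM in Oct4GFP- and 11.1 TPM in Oct4GFP+ cells, and in mES medium at 6.33 and 3.02 TPM. R1 ESCs-primed had 6.99 TPM, converted primed cells 2.39 TPM and converted naive cells 1.1 TPM. The 5C libraries were the top pair, as for Notch1. These levels rest on few reads, 8 in mES-Oct4GFP+ and 12 in converted naive cells against 211 in the Oct4GFP- cells of 5C medium. The effective length of Dll1 also ran from 796 bases in mES-Oct4GFP+ to 3508 in converted primed cells, and 20.5% of its exonic bases are shared with the opposite-strand transcript A930024N18Rik. Like Rbpj, it was among the markers of the 5C state that the study picked on these libraries.

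Dll3 (chr7:28293553-28302238, minus strand) encodes a Delta protein that stays largely inside the cell and does not activate receptors of neighbours. It was highest in R1 ESCs-primed at 19.4 TPM, then in 5C-Oct4GFP- cells at 11.8 TPM. Converted primed cells had 5.25 TPM, converted naive cells 3.29 TPM, the Oct4GFP- and Oct4GFP+ cells of mES medium 2.32 and 2.01 TPM, and 5C-Oct4GFP+ cells 1.84 TPM. From converted primed cells downward no neighbours differed beyond counting error, and the lowest count was 7 reads in mES-Oct4GFP+. Its effective length was 902 bases in converted naive and 1048 in mES-Oct4GFP+ cells against at least 1983 elsewhere.

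Jag1 (chr2:137081456-137116644, minus strand), a ligand common in mesenchymal and vascular cells, had the flattest profile of the ligands. It was at 31.1 and 27.9 TPM in the Oct4GFP- cells of 5C and mES medium and at 10.5 and 13.0 TPM in the Oct4GFP+ cells. Converted naive cells had 20.2 TPM, R1 ESCs-primed 19.3 TPM and converted primed cells 15.2 TPM. Both Oct4GFP- libraries were at the top and did not differ beyond counting error. In converted naive cells Jag1 made up 68.4% of ligand TPM, the sum of Dll1, Dll3, Dll4, Jag1 and Jag2.

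Jag2 (chr12:112907819-112929776, minus strand), its close relative, peaked in mES-Oct4GFP- at 37.7 TPM, which was 2.06 times the next library (1.83 to 2.33). Converted primed cells had 18.3 TPM, the Oct4GFP+ and Oct4GFP- cells of 5C medium 13.6 and 12.7 TPM, R1 ESCs-primed 12.8 TPM, mES-Oct4GFP+ cells 9.73 TPM and converted naive cells 4.89 TPM. Both sorted 5C libraries and R1 ESCs-primed, in the middle, did not differ from each other beyond counting error.

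Hes1 (chr16:30064384-30067796, plus strand), the classical Notch target, was the most abundant of the 10 genes in 4 libraries. It was at 189 and 113 TPM in the Oct4GFP- cells of 5C and mES medium, 169 TPM in R1 ESCs-primed and 150 TPM in converted primed cells. It was at 60.3 and 51.6 TPM in the Oct4GFP+ cells of these media and at 30.3 TPM in converted naive cells. All Oct4GFP- and primed libraries stood above the Oct4GFP+ and naive ones, with a ratio of 1.87 (1.65 to 2.11) at the step between them. The step from mES-Oct4GFP+ down to converted naive cells was of like size, at 1.70 (1.39 to 2.09). The effective length of Hes1 was 1029 bases in converted primed cells and 1071 in R1 ESCs-primed, against at least 1217 elsewhere. This raises its TPM in the primed libraries for the same reads. Within 5C medium, Rbpj stood above Hes1 in Oct4GFP+ cells, at 183 against 60.3 TPM, and below it in Oct4GFP- cells, at 44.6 against 189 TPM. The same held in mES medium, at 74.7 against 51.6 TPM and 38.4 against 113 TPM. Rbpj was also above Hes1 in converted naive cells and below it in both primed libraries. The study picked Hes1 as a marker of the primed state on these libraries, so that its level in them is not independent evidence.

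Hey1 (chr3:8663359-8667256, minus strand), a target of the same family, was at a lower level and was highest in the same 4 libraries, with no gap that set them apart. It was at 14.5 TPM in converted primed cells, 12.8 TPM in R1 ESCs-primed, and 12.2 and 7.30 TPM in the Oct4GFP- cells of 5C and mES medium. It was at 4.82 and 2.17 TPM in the Oct4GFP+ cells and at 1.72 TPM in converted naive cells. Among the upper 3, neighbours did not differ beyond counting error. The next steps down were of like size, at ratios of 1.68 (1.23 to 2.30) from 5C-Oct4GFP- to mES-Oct4GFP- cells, 1.51 (1.05 to 2.20) on to 5C-Oct4GFP+ cells and 2.22 (1.27 to 4.08) on to mES-Oct4GFP+ cells. The lowest levels rest on 17 and 18 reads.

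Levels were next compared between pairs of libraries. A gene was counted as higher or lower where log2(TPM + 1) differed by at least 1, that is 2-fold, among genes that reached 1 TPM in at least 1 of the libraries compared. This scale understates the change of low genes, and intervals of a ratio are exact Clopper-Pearson 95% intervals that cover counting error only. The comparisons share libraries, so a high level in 5C-Oct4GFP+ or 5C-Oct4GFP- enters several of them.

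**Figure D3:**
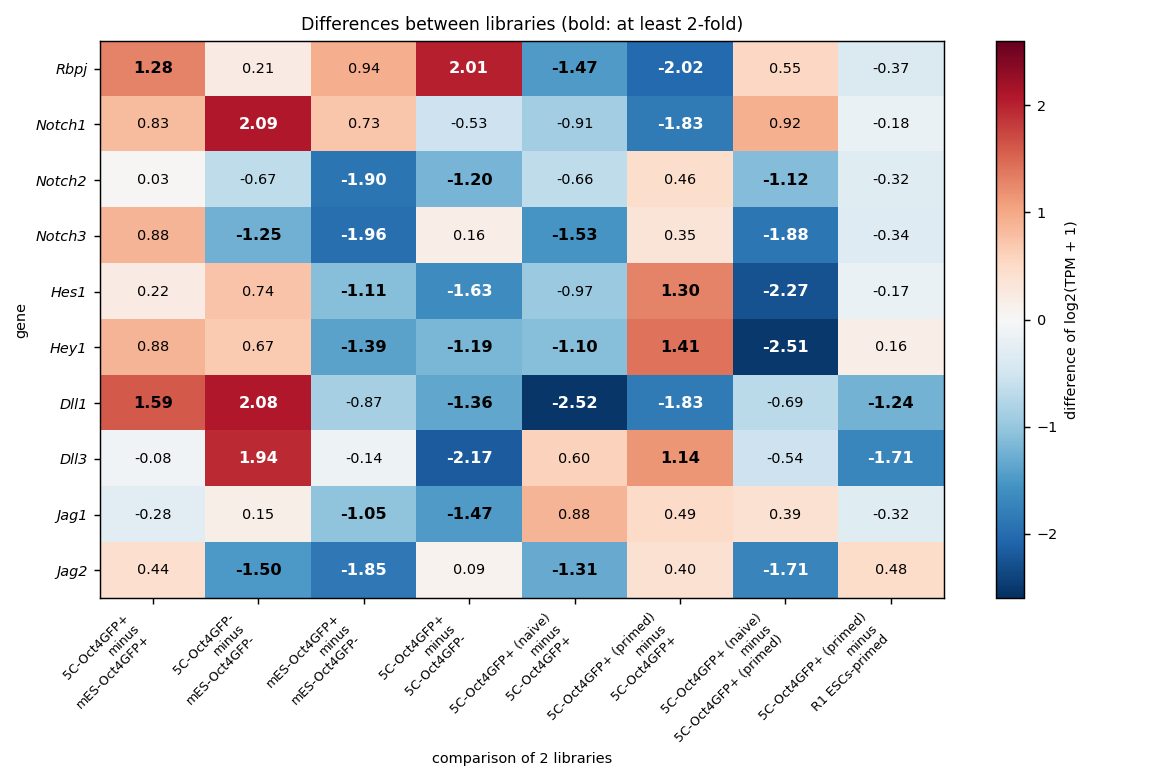
Difference of log2(TPM + 1) for the 10 genes (rows) in 8 comparisons (columns, first library minus second), by color and number, with differences of at least 2-fold in bold. Rbpj is at 1.28, 2.01, -1.47 and -2.02 in the comparisons that hold 5C-Oct4GFP+, and Hes1 and Hey1 are at -2.27 and -2.51 between the naive and primed libraries.

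Between the media in Oct4GFP+ cells, Rbpj and Dll1 were higher in 5C than in mES medium and no member was lower by 2-fold. Rbpj differed by 1.28 on the log2 scale. Dll1 differed by 1.59, a ratio of 3.67 with a wide interval of 1.81 to 8.69. Its effective length was 796 bases in the mES and 2084 in the 5C library, and in read counts scaled to the library total (CPM), without division by effective length, it differed by 2.56. The 2 of 10 genes counted compare with a background of 27.2% of all genes tested in either direction, 13.7% higher and 13.5% lower, so that share is near the background. Notch1 was at a ratio of 1.82 (1.64 to 2.01) and Notch3 at 1.89 (1.69 to 2.13), both short of the 2-fold step, as was Hey1 at 2.22 (1.27 to 4.08) on the log2(TPM + 1) scale. In CPM the difference of Notch1 was 0.52, beside 0.83 in TPM. Its effective length was shortest in the 5C library, at 7460 bases. Notch2 (1.02, 0.877 to 1.20), Hes1 (1.17, 0.990 to 1.39) and Dll3 did not differ beyond counting error. The median difference was 0.64 over the 10 genes and -0.06 over all genes tested. Markers of other states differed too. Smooth muscle markers summed to 21.8 TPM in 5C and 3.19 TPM in mES medium, and the 6 endothelial markers to 31.1 and 8.95 TPM. In each list 3 of 3 compared were higher in 5C medium. The endothelial sums were mostly Tek, at 22.7 and 7.49 TPM. Primed markers summed to 398 and 56.8 TPM, with 6 of 8 higher. T went the other way and was lower by 2-fold, at 0.24 against 6.93 TPM. Cnn1 and Cdh5 were at 0 in mES-Oct4GFP+ cells and Emcn in both libraries, and the part of these markers was not tested.

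In Oct4GFP- cells the medium went with another receptor and ligand makeup. Notch1 (4.57-fold, 4.10 to 5.09), Dll1 (4.74-fold, 3.53 to 6.39) and Dll3 (5.08-fold, 3.30 to 8.10) were higher in 5C medium. Notch3 and Jag2 were lower, at ratios of 0.410 (0.378 to 0.445) and 0.337 (0.288 to 0.394). These 5 of 10 genes stand beside a background of 19.8%, with 9.68% higher and 10.1% lower. Rbpj was at a ratio of 1.16 (1.06 to 1.27) here. The 2 libraries also differed in markers of other cells. Of 7 neural markers 6 reached 1 TPM in 5C medium, against 4 in mES medium. Sox1 was at 15.5 and 2.38 TPM in these media, and Pax6 went the other way, at 2.36 and 5.2 TPM. The list summed to 117 and 33.3 TPM, mostly Tubb3, and Neurog2 was at 0 in the former. The 5 smooth muscle markers summed to 271 TPM in 5C and 554 TPM in mES medium, 5 keratinocyte markers to 91.1 and 81.2 TPM, and fibroblast markers to 266 and 589 TPM. Keratinocyte genes moved in both directions. Krt5 was at 43.8 TPM in 5C and 2.41 TPM in mES medium, while Krt14 was at 44.8 and 75.35 TPM and Krt1 at 0.3 and 1.91 TPM. The part of all these markers in the differences was not tested.

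Between Oct4GFP+ and Oct4GFP- cells of mES medium, 6 of the 10 genes were lower in the Oct4GFP+ cells and none was higher by 2-fold, against a background of 46.7%, with 17.9% higher and 28.8% lower. They were Notch2 (ratio 0.243, 0.212 to 0.278), Notch3 (0.244, 0.218 to 0.272), Jag2 (0.258, 0.212 to 0.312), Hey1 (0.297, 0.164 to 0.512), Hes1 (0.458, 0.390 to 0.536) and Jag1 (0.465, 0.398 to 0.541). Rbpj and Notch1 were on the other side, at ratios of 1.94 (1.79 to 2.12) and 1.72 (1.51 to 1.96). With TPM rescaled by median-ratio size factors or with FPKM the split was 1 higher and 4 lower, since Rbpj passed 2-fold and Hes1 and Jag1 did not. In CPM it was 1 higher and 6 lower, with Dll1 in the place of Jag1. All 10 fibroblast markers reached 1 TPM in mES-Oct4GFP- cells and 5 of 10 in mES-Oct4GFP+ cells, where Twist2 was at 0. Smooth muscle markers summed to 554 against 3.19 TPM, with Cnn1 at 0 in the latter. Their part was not tested.

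In 5C medium the same sort gave 7 of 10 genes past 2-fold, against a background of 31%, with 8.45% higher and 22.6% lower. Rbpj was 4.10-fold higher (3.84 to 4.39) in Oct4GFP+ cells. Dll3 (0.156, 0.098 to 0.240), Hes1 (0.319, 0.285 to 0.358), Jag1 (0.339, 0.294 to 0.391), Dll1 (0.369, 0.295 to 0.462), Hey1 (0.394, 0.280 to 0.550) and Notch2 (0.404, 0.359 to 0.453) were lower. Notch3 and Jag2 were near 1 in this medium, at 1.13 and 1.07 (0.896 to 1.28). In CPM, Dll1 was at -0.95 on the log2 scale and no longer past 2-fold. Under median-ratio rescaling the same held for Notch2 and Hey1, at -0.99 and -0.98. Fibroblast markers summed to 10.5 TPM in Oct4GFP+ and 266 TPM in Oct4GFP- cells, of which 3 and 9 of 10 reached 1 TPM. Smooth muscle markers summed to 21.8 and 271 TPM, keratinocyte markers to 4.32 and 91.1 TPM and neural markers to 55.4 and 117 TPM, with Krt15 at 0 in the Oct4GFP- and Neurog2 at 0 in both libraries. Their part was not tested.

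Conversion in naive medium went with lower levels of several members than in the 5C-Oct4GFP+ cells from which the culture came. Dll1 was lower by the most, at a ratio of 0.0993 (0.0499 to 0.179), followed by Notch3 (0.321, 0.284 to 0.364), Rbpj (0.356, 0.337 to 0.377), Hey1 (0.357, 0.197 to 0.616) and Jag2 (0.360, 0.282 to 0.456). These 5 of 10 genes were all lower, beside a background of 27.5%, with 10% higher and 17.5% lower. Hey1 was at -0.87 with FPKM and -0.98 in CPM, short of 2-fold. Jag1 went the other way, at a ratio of 1.92 (1.65 to 2.23). Hes1 (0.502, 0.420 to 0.598) and Notch1 (0.518, 0.473 to 0.568) were just short of 2-fold. In CPM the difference of Notch1 was -0.54, beside -0.91 in TPM. Smooth muscle markers summed to 3.31 TPM in converted naive and 21.8 TPM in 5C-Oct4GFP+ cells. Endothelial markers summed to 5.25 and 31.1 TPM, mostly Tek at 4.06 and 22.7 TPM, and primed markers to 60.5 and 398 TPM. Of the genes compared, 3 of 3, 3 of 3 and 6 of 7 were lower. The other primed marker compared, T, was higher in converted naive cells, at 14.5 against 0.24 TPM. Cnn1, Cdh5 and Tie1 were at 0 in converted naive cells and Emcn in both libraries, and the part of these markers was not tested. The libraries differ in passage, 0 against 20, as well as in medium, and these cannot be told apart, which holds for the primed culture too. A figure legend of the study gives 3 days in the new medium for the converted cells in its RNA-Seq and names no passages.

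Conversion in primed medium went with less Rbpj, Notch1 and Dll1 and with more Hes1 and Hey1. Rbpj was at a ratio of 0.242 (0.228 to 0.256), Notch1 at 0.258 (0.231 to 0.287) and Dll1 at 0.216 (0.154 to 0.300). Hes1 was 2.49-fold higher (2.22 to 2.79), Hey1 3.01-fold (2.22 to 4.12) and Dll3 2.85-fold (1.82 to 4.62). The 6 of 10 genes stand beside a background of 29.7%, with 13.7% higher and 16.1% lower. Of 13 further genes named as targets 11 could be compared, of which 2 were higher and 3 lower, with a median difference of -0.47. Hes1 was at 0.98 in CPM and Dll3 at 0.95 with FPKM, both just under 2-fold. Dll1 was at -1.28 and Notch1 at -1.70 in CPM, each beside -1.83 in TPM. The effective length of Dll1 was 3508 bases in converted primed and 2084 in 5C-Oct4GFP+ cells. Primed markers summed to 398 TPM in 5C-Oct4GFP+ and 915 TPM after conversion. Of the 8 genes 3 were higher by 2-fold, Fgf5, Foxa2 and T, and 0 were lower. Fibroblast markers summed to 10.5 and 75.4 TPM, of which 3 and 10 of 10 reached 1 TPM, and their part was not tested.

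The naive and primed cultures came from 1 kind of cell and had the same number of passages. Of the 10 genes 5 were lower in the naive culture and none was higher by 2-fold, against a background of 38.9%, with 16.7% higher and 22.2% lower. Hey1 (0.119, 0.0688 to 0.192) and Hes1 (0.202, 0.171 to 0.237) differed the most, then Notch3 (0.251, 0.223 to 0.283), Jag2 (0.267, 0.211 to 0.335) and Notch2 (0.409, 0.350 to 0.477). Notch1 was higher in the naive culture at a ratio of 2.01 (1.78 to 2.27), or 0.92 on the log2(TPM + 1) scale, and Rbpj at 1.47 (1.37 to 1.58). Median-ratio rescaling gave 1 higher and 4 lower, with Notch1 past 2-fold at 1.098 and Notch2 at -0.97. CPM gave 1 higher and 7 lower, with Dll1 and Dll3 added at -1.19 and -1.62. Hes1 was at -1.89 in CPM, beside -2.27 in TPM. Fibroblast markers summed to 16.1 TPM in the naive and 75.4 TPM in the primed culture, with Twist2 at 0 in the former, and their part was not tested.

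The primed libraries, from OG2 and R1 cells, had the lowest share of genes past 2-fold among the 8 comparisons. Only Dll1 (0.342, 0.228 to 0.517) and Dll3 (0.271, 0.204 to 0.356) were lower in converted primed cells than in R1 ESCs-primed by 2-fold, beside a background of 7.39%, with 2.3% higher and 5.09% lower. In CPM the difference of Dll1 was -0.48, and its effective length was 3508 bases in the former library and 1820 in the latter. Hes1 (0.889, 0.806 to 0.981), Notch2 (0.787, 0.703 to 0.881), Notch3 (0.785, 0.731 to 0.844), Rbpj (0.768, 0.711 to 0.830) and Jag1 (0.791, 0.681 to 0.919) were lower and Jag2 (1.43, 1.21 to 1.698) higher by less than 2-fold. Notch1 and Hey1 did not differ beyond counting error. Fibroblast markers summed to 75.4 and 213 TPM, of which 10 of 10 reached 1 TPM in both. Cell line, retroviral factors and culture history differ together between these libraries and cannot be told apart.

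**Figure D4:**
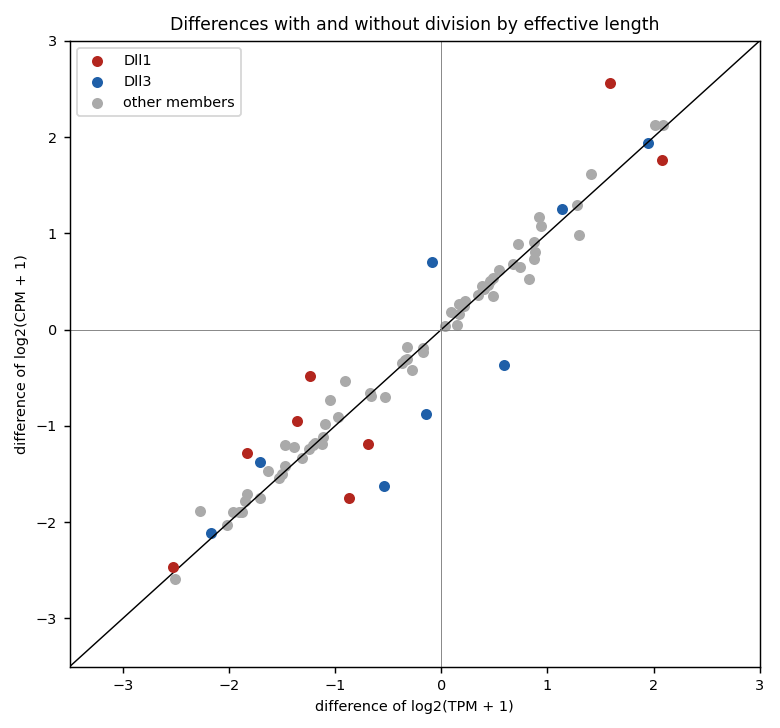
Each of the 80 differences of a gene between 2 libraries, on the log2(TPM + 1) scale (horizontal axis) and on log2(CPM + 1) without division by effective length (vertical axis), with a line of equality. Dll1 and Dll3 lie farthest from the line, and Dll3 changes sign between 5C-Oct4GFP+ and mES-Oct4GFP+, from -0.08 to 0.70.

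Other genes of the pathway were read from lists by role. Among the other receptors and ligands, Notch4 had its highest level in 5C-Oct4GFP- at 42.7 TPM, beside 18.7 TPM in the Oct4GFP- cells of mES medium and between 3.21 and 8.35 in the rest. Dlk1, a Delta-like protein without the domain that activates receptors, was at 210 and 36.3 TPM in the Oct4GFP- cells of mES and 5C medium, 98.9 TPM in R1 ESCs-primed, 34.5 TPM in converted primed cells and at most 2.33 TPM in the Oct4GFP+ and naive libraries. Dlk2 was at 7.62 TPM in mES-Oct4GFP- and under 1 elsewhere. The endothelial ligand Dll4 did not pass 3.70 TPM.

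Of 10 genes for the proteases that cut the receptors and their subunits, between 8 and 10 reached 1 TPM in a library. Of these 10 genes 7 were lower in the Oct4GFP+ than in the Oct4GFP- cells of mES medium and 3 in those of 5C medium, with none higher. Of all genes tested, 28.8% and 22.6% were lower in these comparisons, so that the share in 5C medium is near the background. Furin, which cuts the receptor on its way to the surface, was at 18.4 and 80.1 TPM in the first pair and at 14.8 and 40.1 TPM in the second. The γ-secretase subunit Aph1b was at 0.11 and 8.96 TPM, and at 1.62 and 4.49 TPM. None of the 10 passed 2-fold between converted primed cells and 5C-Oct4GFP+, beside 29.7% of all genes tested.

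Among 9 genes of glycosylation and ligand endocytosis, the Fringe enzymes Lfng and Mfng, which add sugars that tune the receptors' choice of ligand, peaked in 5C-Oct4GFP-, where Notch1 and Dll1 also did. Lfng was at 43.4 TPM there and between 0.95 and 9.71 TPM elsewhere, and Mfng at 31.1 TPM and between 0.12 and 8.79 TPM. Mib2, a ubiquitin ligase for ligands, was at 12.3 and 12.2 TPM in the primed libraries and at 36.1 TPM or more elsewhere. The list had 3 genes higher and none lower in the Oct4GFP- cells of 5C medium than of mES medium, beside 9.68% and 10.1% of all genes.

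Genes for RBPJ partners were mostly level between the media. Between 5C-Oct4GFP+ and mES-Oct4GFP+ none of 7 co-activators and none of 13 co-repressors passed 2-fold, beside 27.2% of all genes tested. Between the Oct4GFP- cells of these media no co-activator passed 2-fold. There 1 of the 13 co-repressors was lower in 5C medium, beside 19.8% of all genes tested in either direction. Among co-activators, the Mastermind gene Maml3 was at 0.43 and 1.11 TPM in the Oct4GFP+ cells of mES and 5C medium and 0.55 TPM in converted naive cells, against 9.19 to 15.2 TPM in the other 4 libraries. Maml2 was at 1.22 and 2.09 TPM in the primed libraries and at 6.98 TPM or more elsewhere, and the acetyltransferase Kat2b at 9.51 and 7.55 TPM there and 25.1 TPM or more elsewhere. Among co-repressors, Bend6, named after its values were seen, was at 7.39 TPM in the Oct4GFP- and 0.78 TPM in the Oct4GFP+ cells of 5C medium, past 2-fold, from 72 and 9 reads. No co-repressor varied by 5-fold over the 7 libraries on the TPM + 1 scale.

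Of 10 inhibitors and turnover genes, 4 were higher and 1 lower in the 5C than in the mES library of Oct4GFP+ cells, beside 13.7% and 13.5% of all genes. Dtx1, a Deltex ubiquitin ligase and itself a Notch target, was highest in the same library as Rbpj, at 35.7 TPM in 5C-Oct4GFP+. It was at 2.43 and 3.04 TPM in the Oct4GFP+ and Oct4GFP- cells of mES medium, 10.2 TPM in 5C-Oct4GFP- cells, 5.68 TPM in converted naive cells, 14.0 TPM in converted primed cells and 24.8 TPM in R1 ESCs-primed. Dtx4 ranged from 0.71 TPM in converted naive cells to 10.1 TPM in 5C-Oct4GFP-, and Dtx3 from 18.5 TPM in converted naive cells to 109 TPM in converted primed cells. Between the naive and primed cultures 6 genes of the list were lower in the naive one and none was higher, beside 22.2% and 16.7% of all genes.

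In a list of 13 further genes named as targets, 8 reached 1 TPM in either library of Oct4GFP+ cells. Of these, 5 were higher and 1 lower in 5C than in mES medium, beside 13.7% and 13.5% of all genes. The 5 include Dtx1, which is also counted among the inhibitors. Whether the genes of this list answer to Notch in these cells was not tested. Hes6, which promotes neurogenesis, was at 62.7 against 8.57 TPM, and at 153 against 57.8 TPM in the Oct4GFP- cells of the same media. Bhlhe40, which also answers hypoxia, was at 49.0 against 5.33 TPM, and highest in mES-Oct4GFP- at 268 TPM. Hes3 was at 11.1 and 1.20 TPM in the Oct4GFP- and Oct4GFP+ cells of 5C medium and 0.13 TPM in the Oct4GFP- cells of mES medium, and had no reads in the other 4 libraries. Nrarp, a feedback inhibitor named here after its values were seen, was at 16.7 and 17.1 TPM in the primed libraries, 22.0 and 13.4 TPM in the Oct4GFP- cells of mES and 5C medium, 2.63 and 4.33 TPM in the Oct4GFP+ cells, and 1.66 TPM in converted naive cells. The set of target genes as a whole was not uniform, since Ccnd1 and Cdkn1a stood lower in the Oct4GFP+ cells of 5C medium than in those of mES medium, at 80.8 against 125 TPM and 135 against 296 TPM.

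**Figure D5:**
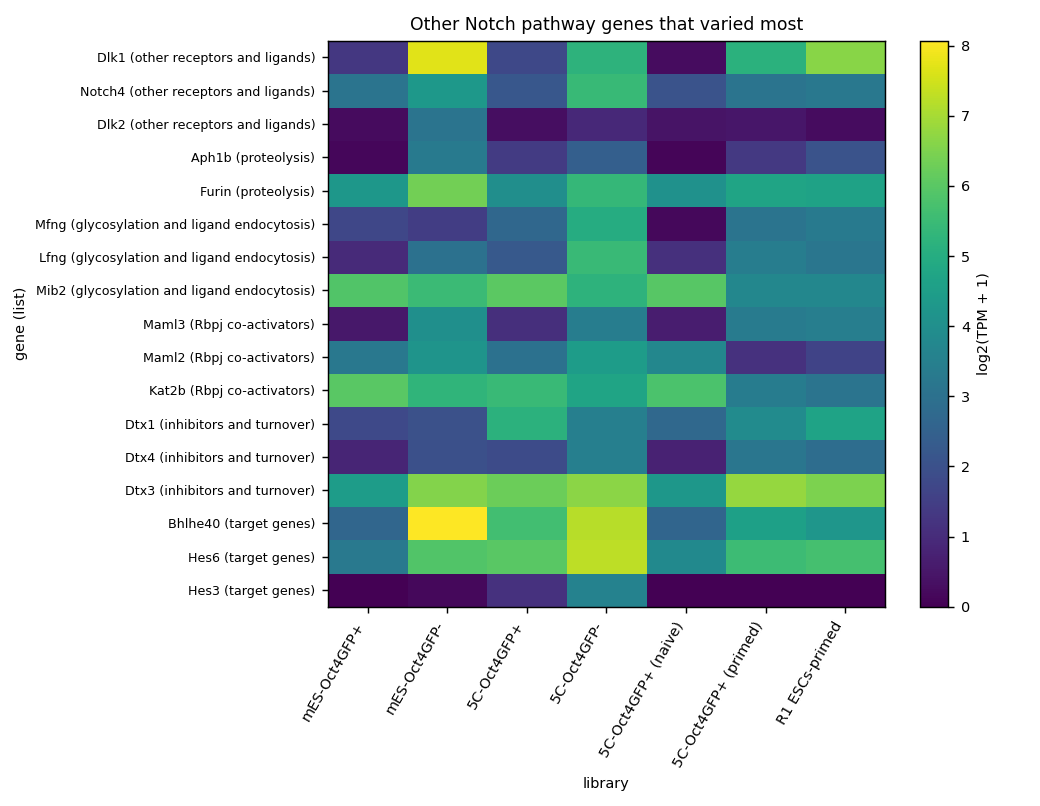
log2(TPM + 1) (color) of the pathway genes outside the 10 whose level varied at least 5-fold, up to 3 per list, in 7 libraries (columns). Notch4, Lfng, Mfng, Hes6 and Hes3 are brightest in 5C-Oct4GFP-, Dtx1 in 5C-Oct4GFP+, and Dlk1, Furin and Bhlhe40 in mES-Oct4GFP-.

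The genes whose pattern was most like that of a member were sought by Pearson's r of log2(TPM + 1) over the 7 libraries among 13567 genes. The r is given as a description, over 7 points and with the highest values of a long search. For Rbpj they were Ubqln4 (r = 0.978), Rasgrp4 (0.978) and Twf2 (0.976), of which Rasgrp4 was at 28.4 TPM in 5C-Oct4GFP+ and at most 10.1 TPM elsewhere. For Notch1 they were Dusp28 (0.981), Spire2 (0.979) and Gm8220 (0.972). Notch2 was nearest to Hipk3 (0.999), Fas (0.996) and Egln1 (0.995), and Notch3 to Capg (0.986), Snap47 (0.984) and Serinc2 (0.983). Hes1 was nearest to Hmgn5 (0.999), Pbrm1 (0.993) and Magi1 (0.990), and Hey1 to Rnf144a (0.998), Zfp664 (0.995) and Fbxo16 (0.995). For Dll1 they were Krit1 (0.989), Ski (0.977) and Cep131 (0.972). For Dll3 they were Gtdc1 (0.962), Agtr2 (0.937) and ENSMUSG00000064168 (0.930). Jag1 was nearest to Srek1ip1 (0.985), Arl1 (0.972) and Bcl6 (0.969), and Jag2 to Eno3 (0.987), the Notch inhibitor gene Numb (0.984) and Tbc1d32 (0.983).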

How the data were processed

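Total RNA of 7 mouse cell populations, 1 library each, was sequenced by the authors on an Illumina MiSeq. Per the labels, Bowtie, RSEM and the build mm10 were used, with versions not given in the sources used here. The authors deposited, for each Ensembl gene, RSEM's expected counts (estimated, not normalized), TPM, and FPKM with its effective length. Effective length depends on RSEM's isoform estimates and so changes TPM for the same reads.

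Differences of log2(TPM + 1) were taken for genes with at least 1 TPM in 1 of the libraries and a 2-fold threshold. For ratios, Clopper-Pearson 95% intervals (exact) were computed after rounding the deposited expected counts, and cover counting error only. With 1 library per group there is no test. The 7 alternatives were a pseudocount of 0.1, a minimum TPM of 5, no minimum, median-ratio rescaling, FPKM, 1.5-fold, and CPM computed from the deposited expected counts and their library total. Coordinates and exons came from GENCODE M21 (GRCm38), and promoters from RefSeq GRCm38.p6. The software was matplotlib 3.10.9, scipy 1.17.1, pandas 2.3.3 and numpy 2.4.6 under Python 3.11.15. The scripts were tested on simulated data.

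Members and lists were chosen with earlier results of these data known. Named were all members, up to 3 genes per role list whose highest TPM + 1 was at least 5 times the lowest, and the 3 genes with the highest Pearson r to each member among genes that reached 5 TPM in a library. Dll4, Nrarp, Bend6, Ccnd1 and Cdkn1a were named after their values were seen, and marker genes serve to describe the libraries. Planned protein comparisons were not made, since no protein table was used here.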

Additional observations from a re-analysis of the deposited data

Results flagged for a closer look

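Notch3 and Jag2 moved in opposite directions with the medium in the 2 sorted fractions. The TPM ratio of 5C to mES medium was 1.89 for Notch3 in Oct4GFP+ cells and 0.410 in Oct4GFP- cells, and 1.40 and 0.337 for Jag2. Notch1 and Notch3 moved in opposite directions with the reporter in the 2 media. The TPM ratio of Oct4GFP+ to Oct4GFP- cells was 1.72 for Notch1 in mES medium and 0.684 in 5C medium, and 0.244 and 1.13 for Notch3. These were picked out because the single library pair of each setting moved one way and that of the other the opposite way, with counting intervals that exclude 1 in both. The 4 sorted libraries are shared by all of these ratios, and the difference between settings was not tested, since each group has 1 library.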

How the results depend on the processing

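The number of members past 2-fold stayed within 1.5 times its value in 51 of 56 recomputations. A 1.5-fold step in place of 2-fold gave 5 members between the media in Oct4GFP+ cells (2 at 2-fold), 8 in Oct4GFP- cells (5 at 2-fold) and 10 between converted naive and 5C-Oct4GFP+ cells (5 at 2-fold), by its own construction. CPM gave 8 between the naive and primed cultures (5 in TPM) and 1 between the primed libraries (2 in TPM), where the effective lengths of Dll1 and Dll3 drop out. Of 320 recomputed differences of single genes 266 stayed within their counting interval. Only Dll3 changed sign, in CPM, from -0.08 to 0.70 between the media in Oct4GFP+ cells and from 0.60 to -0.37 between converted naive and 5C-Oct4GFP+ cells, and neither difference passed 2-fold. Rbpj passed 2-fold between the Oct4GFP+ and Oct4GFP- cells of mES medium with median-ratio rescaling (1.09), FPKM (1.05) and CPM (1.07), beside 0.94 in TPM. Median-ratio rescaling moved the median difference of all genes between the Oct4GFP+ and Oct4GFP- cells of 5C medium from -0.25 to -0.04, of mES medium from -0.15 to -0.003, and between the naive and primed cultures from -0.14 to 0.04. Relative to such a shift, negative differences of members in these comparisons are smaller by about that amount. No replicate could be left out. No paired analysis was possible because each group has 1 library and the numbers pair nothing. The lowest member counts, 7 reads of Dll3 and 8 of Dll1 in mES-Oct4GFP+, limit what can be said of these ligands.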
